A study of Mus musculus with 12 samples.

Results

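Ikaros deficiency in resting follicular B cells was measured on 4 arrays of mouse splenic B cells, 2 titled IkL/L unstimulated and 2 titled WT unstimulated, out of 12 arrays in the series. Membership was read from the sample titles, so no measured value chose the arrays. Every gene with a single-symbol probe set was tested, and most of the genes named below were chosen by their measured difference. The cells of both genotypes came from C57Bl/6 mice aged 6 weeks, were sorted as B220+ CD23hi CD21lo at a purity above 98%, and were kept for 3 h in culture medium with no stimulus, so that "resting" here means sorted, cultured and not stimulated. The other 8 arrays hold the same cells of both genotypes after 3 h or 12 h with 10 µg/ml of a goat F(ab')2 fragment against mouse IgM, which crosslinks the B cell receptor, again with 2 arrays a group. WT cells carry the wild-type Ikzf1 locus, and IkL/L cells carry the IkL allele on both copies, in the germline and therefore in every cell of the animal. The number of mice behind an array, pooling and sex were not given in the sources used here, and p-values therefore measure only the spread between these arrays.

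Ikaros, the product of Ikzf1, is a zinc finger transcription factor of lymphoid cells that binds DNA at a GGGAA core and acts with chromatin remodelling complexes such as NuRD, both to silence and to activate genes. The IkL allele is a hypomorph made by insertion of a lacZ reporter into the locus, so that homozygous cells keep a low level of Ikaros. Follicular B cells are the main recirculating mature B cells of the spleen. Ikaros is known in B cells for its part in early B cell development and in setting the threshold of B cell receptor signalling.

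The arrays measured 18193 genes, each by 1 probe set, and the values are log2 signals. Array medians lay between 3.12 and 3.21, and a floor was set at 4.21, which is 1 above the highest array median. Of all genes, 54.7% were under this floor on each of the 4 resting arrays, so their levels cannot be told from background. A fold is given as "at least" where an array of the lower group was under the floor. Across genes, the arrays of 1 genotype correlated at 0.993 (WT) and 0.991 (IkL/L), and arrays of different genotypes at 0.987 to 0.99. The female transcript Xist had log2 signals of 10.69 and 3.22 in WT replicates 1 and 2 and 3.48 and 3.33 in the IkL/L replicates, and the Y-linked Eif2s3y had 2.41 and 8.60 against 9.24 and 8.62. WT replicate 1 therefore differed in sex from the other 3 resting arrays, and WT replicate 1 at 3 h and 12 h of stimulation differed in the same way, with Xist at 10.21 and 10.01 and Eif2s3y at 2.55 and 2.83. Each call at rest described below is given without the resting array where it was lost. Genes of the type I interferon response were also high on WT replicate 1, where the linear signals of the 21 measured summed to 6070 against 1240 on WT replicate 2 and 1698 and 2418 in IkL/L. The part of sex or of interferon genes in the genotype difference was not tested.

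The defining genes of follicular B cells were present on all 4 arrays. Fcer2a, which encodes the CD23 used in the sort, had log2 signals of 9.46 and 9.83 in WT against 9.39 and 9.76 in IkL/L. Cr2, which encodes CD21, had 7.19 and 6.89 against 6.77 and 7.12. The pan-B cell gene Ms4a1, which encodes CD20, had 11.54 and 11.51 against 10.99 and 10.77, a difference of -0.64 that did not pass the test (limma adjusted p 0.118). Among 7 follicular B cell markers measured, none passed the adjusted threshold in limma. At an unadjusted p under 0.05, 2 were lower in IkL/L, where 4.62% of all genes were lower. Cd3e, Cd3d, Cd4 and Cd8a of T cells and all 9 measured NK cell markers were under the floor on the 4 arrays. Of 17 T cell markers measured 3 were above the floor on a resting array, as were 6 of 11 neutrophil markers, and both lists are described below.

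The Ikzf1 probe set did not report the mutation. Its log2 signals were 9.85 and 9.83 in WT against 10.00 and 9.94 in IkL/L, a difference of 0.13 (SE 0.22, limma adjusted p 0.937). The groups did not overlap, which held for 38.7% of all genes, and they lay closer than the spread that the fit assigns to this gene. The position of the probe set relative to the insertion was not analysed here, so this signal does not check the genotype labels. A second Ikzf1 probe set was under the floor. Of the other Ikaros family members, Ikzf3, which encodes Aiolos, had 7.48 and 7.72 in WT against 7.36 and 7.70 in IkL/L, and Ikzf2, which encodes Helios, was under the floor on the 4 arrays. None of the 5 family members passed the test in limma, and 1 was higher at an unadjusted p under 0.05, where 6.17% of all genes were higher.

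At rest, 205 of 18193 genes (1.13%) differed between IkL/L and WT at a limma adjusted p under 0.05. Of these, 108 (0.594% of all genes) were higher and 97 (0.533%) lower in IkL/L, and the difference was at least 2-fold for 65 and 61 of them. The largest rises were in genes whose signal in WT was low or under the floor, led by the membrane protein gene Tmem176b, the rhomboid-like gene Rhbdf1 and the Ras-related GTPase gene Rasd1. The largest falls were in Sdc1, Sspn, Rnf125 and Cdc25b. At an unadjusted p under 0.05 there were 1963 genes, 1122 (6.17% of all) higher and 841 (4.62%) lower, and the median difference over all genes was 0.02. With each array centred on its own median, 189 genes differed and the split became 80 higher and 109 lower, 42.3% higher in place of 52.7%. With the replicate number as a block over both genotypes, 400 genes differed. Leaving out a resting array in turn gave 95 genes without WT replicate 1, 33 without WT replicate 2, 168 without IkL/L replicate 1 and 67 without IkL/L replicate 2. Of the 205 genes, 29 (14 higher, 15 lower) passed in each of these 4 fits, and they are described first in each direction. Another probe set of the same gene was measured above the floor in 108 cases, and 105 of those had the sign of the reported one.

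**Figure D1:**
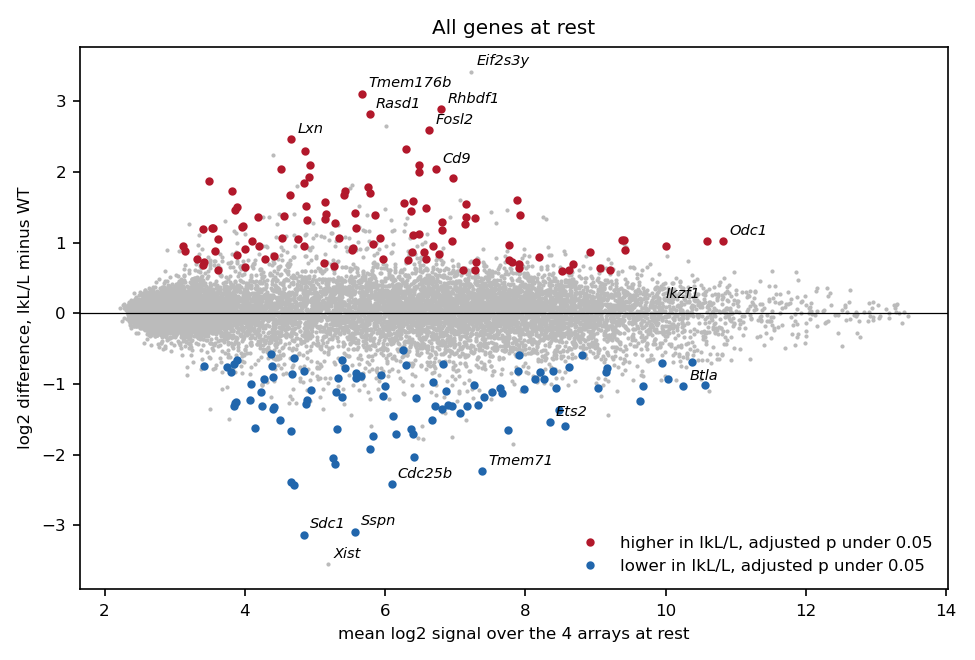
Each point is 1 of 18193 genes, placed by its mean log2 signal over the 4 resting arrays (horizontal) and by its log2 difference, IkL/L minus WT (vertical). Red points are the 108 genes higher and blue points the 97 genes lower at an adjusted p under 0.05, and the sex-linked genes Xist and Eif2s3y, on which WT replicate 1 differs from WT replicate 2, have large differences that did not pass the test.

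Genes that rose in IkL/L and passed in each leave-one-array fit included several surface and membrane proteins. Tmem176b, a multi-pass membrane protein, had log2 signals of 4.19 and 4.03 in WT against 7.04 and 7.41 in IkL/L. It was at least 8.07-fold higher (log2 difference 3.11, SE 0.16, adjusted p 4.85e-05) and was at the floor in WT but clearly above it on both IkL/L arrays. Rhbdf1, which encodes the inactive rhomboid protein iRhom1, had 5.60 and 5.10 in WT against 8.10 and 8.39 in IkL/L, a 7.42-fold rise (log2 difference 2.89, SE 0.22, adjusted p 0.00101). Cd9, a tetraspanin of marginal zone and B-1 cells, had 5.56 and 5.84 against 7.81 and 7.69, a 4.13-fold rise (log2 difference 2.05, SE 0.24, adjusted p 0.00426). In all 3 genes the lowest IkL/L array lay more than 1 log2 unit above the highest WT array. The genes were chosen by their difference, so this gap adds no support. App, the amyloid precursor protein gene, had 3.75 and 3.66 against 5.62 and 6.40 and was at least 3.48-fold higher (adjusted p 0.00252). Wls, which carries Wnt proteins through secretion, had 3.27 and 2.99 against 4.56 and 4.71 and was at least 1.34-fold higher (adjusted p 0.00273).

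The promoter window of Tmem176b is shown with that of Fosl2, the next of the large rises below with an entry in the RefSeq table (assembly GRCm38.p6, 250 bases before to 50 after the start), and with that of App. They are shown because GGGAA is the core that Ikaros recognizes. Lower case marks all bases except GGGAA, or TTCCC where the core lies on the other strand, which are in capitals. App was chosen after its sequence was seen, as the largest rise after these whose window holds the longer form TGGGAA.
The windows are chr6:48841088-48841387 (minus strand, 1 of 3 starts in the table), chr5:32136222-32136521 (plus strand) and chr16:85173658-85173957 (minus strand).
Tmem176b: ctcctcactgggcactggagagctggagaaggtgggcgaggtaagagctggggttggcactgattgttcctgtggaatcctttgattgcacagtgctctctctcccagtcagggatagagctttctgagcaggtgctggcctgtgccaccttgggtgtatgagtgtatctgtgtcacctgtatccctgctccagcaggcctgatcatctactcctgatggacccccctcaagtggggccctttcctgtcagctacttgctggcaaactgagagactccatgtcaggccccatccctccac
Fosl2: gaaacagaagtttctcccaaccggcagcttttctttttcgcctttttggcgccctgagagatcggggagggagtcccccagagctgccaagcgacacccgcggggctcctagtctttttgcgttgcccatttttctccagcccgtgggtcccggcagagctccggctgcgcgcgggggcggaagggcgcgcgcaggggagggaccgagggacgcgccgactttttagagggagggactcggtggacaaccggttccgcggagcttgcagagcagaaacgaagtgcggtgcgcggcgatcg
App: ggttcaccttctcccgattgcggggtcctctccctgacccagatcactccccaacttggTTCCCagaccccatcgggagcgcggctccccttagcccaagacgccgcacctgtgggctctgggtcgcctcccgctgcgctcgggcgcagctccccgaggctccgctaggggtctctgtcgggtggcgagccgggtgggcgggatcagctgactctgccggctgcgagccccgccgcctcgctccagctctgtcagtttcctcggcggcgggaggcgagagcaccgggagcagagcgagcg
The core was matched 0 times in the Tmem176b and Fosl2 windows and 1 time in that of App, on the strand opposite to the printed one.

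Signalling, enzyme and intracellular protein genes made up the rest of the 14 stable rises. Rasd1, a Ras-family GTPase induced by glucocorticoids, had log2 signals of 4.37 and 4.37 in WT against 6.79 and 7.60 in IkL/L, a 7.09-fold rise (log2 difference 2.83, SE 0.25, adjusted p 0.00118). Adm, which encodes the peptide hormone adrenomedullin, had 6.00 and 6.03 against 7.84 and 8.03, a 3.78-fold rise (log2 difference 1.92, SE 0.17, adjusted p 0.00118). Fabp5, whose product binds fatty acids in the cytosol, had 4.89 and 5.39 against 7.36 and 7.58, a 5.01-fold rise (log2 difference 2.33, SE 0.23, adjusted p 0.00216). The WT and IkL/L arrays of these genes were separated by gaps wider than the distance within either pair, which their choice by the difference favours. Lxn, which encodes the carboxypeptidase inhibitor latexin, had 3.25 and 3.62 against 5.78 and 6.01 and was at least 3.21-fold higher (adjusted p 0.00168). Poglut2, a glycosyltransferase of the endoplasmic reticulum, had 5.63 and 5.34 against 7.39 and 7.58, a 4.01-fold rise (adjusted p 0.00136). Bcl2l2, which encodes the survival protein BCL-W, had 4.54 and 4.75 against 5.95 and 5.89, a 2.43-fold rise (adjusted p 0.00251).

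Odc1, the rate-limiting enzyme of polyamine synthesis, was the brightest of the 14, with log2 signals of 10.37 and 10.26 in WT against 11.34 and 11.33 in IkL/L, a 2.04-fold rise (adjusted p 0.00252). Cyp27a1, a sterol hydroxylase of mitochondria, had 4.23 and 4.0 against 5.59 and 5.69 and was at least 2.68-fold higher (adjusted p 0.0013). Sbf2, a catalytically inactive member of the myotubularin family, had 6.45 and 6.32 against 7.84 and 8.02, a 2.93-fold rise (adjusted p 0.00251). These 3 genes, with Wls and the falls Hepacam2, Ets2, Fcgrt, Cyp39a1 and Sec24d, lay outside the rule for named genes and were named after their values were seen, because they passed in each leave-one-array fit.

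The other large rises lost the call when 1 array was left out. Fosl2, which encodes the AP-1 subunit FRA2, had log2 signals of 5.44 and 5.24 in WT against 7.51 and 8.35 in IkL/L, a 6.03-fold rise (log2 difference 2.59, SE 0.33, adjusted p 0.00666, and 0.0928 without WT replicate 2). Its second probe set had 4.07 and 3.94 against 4.07 and 4.15 and so showed no such difference at a level just under the floor. Id2, an inhibitor of E proteins, had 3.63 and 3.35 against 5.51 and 5.56 and was at least 2.5-fold higher (adjusted p 0.00749, 0.101 without WT replicate 2 and 0.0561 without IkL/L replicate 2). Laptm4b, a lysosomal membrane protein, had 5.45 and 5.43 against 7.53 and 7.54, a 4.27-fold rise (adjusted p 0.00753, 0.0954 without WT replicate 2 and 0.0561 without IkL/L replicate 2). In each of these genes both IkL/L arrays were above both WT arrays. This adds no support, since 0 of the 205 called genes had groups that overlap. The groups did not overlap, in either direction, for 38.7% of all genes. Prnp, the prion protein gene, had 3.96 and 3.80 against 5.53 and 6.44 and was at least 3.42-fold higher (adjusted p 0.0289, 0.12 and 0.247 without WT replicate 1 or 2 and 0.179 without IkL/L replicate 2). Havcr1, which encodes the phosphatidylserine receptor TIM-1, had 4.04 and 3.86 against 5.47 and 6.31 and was at least 3.2-fold higher (adjusted p 0.0115, 0.0547 and 0.129 without WT replicate 1 or 2 and 0.0561 without IkL/L replicate 2). Cldn12, a claudin, had 2.74 and 2.38 against 4.33 and 4.54, was at least 1.17-fold higher (adjusted p 0.0255) and lost the call without any 1 of the 4 arrays (0.0616 to 0.247).

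**Figure D2:**
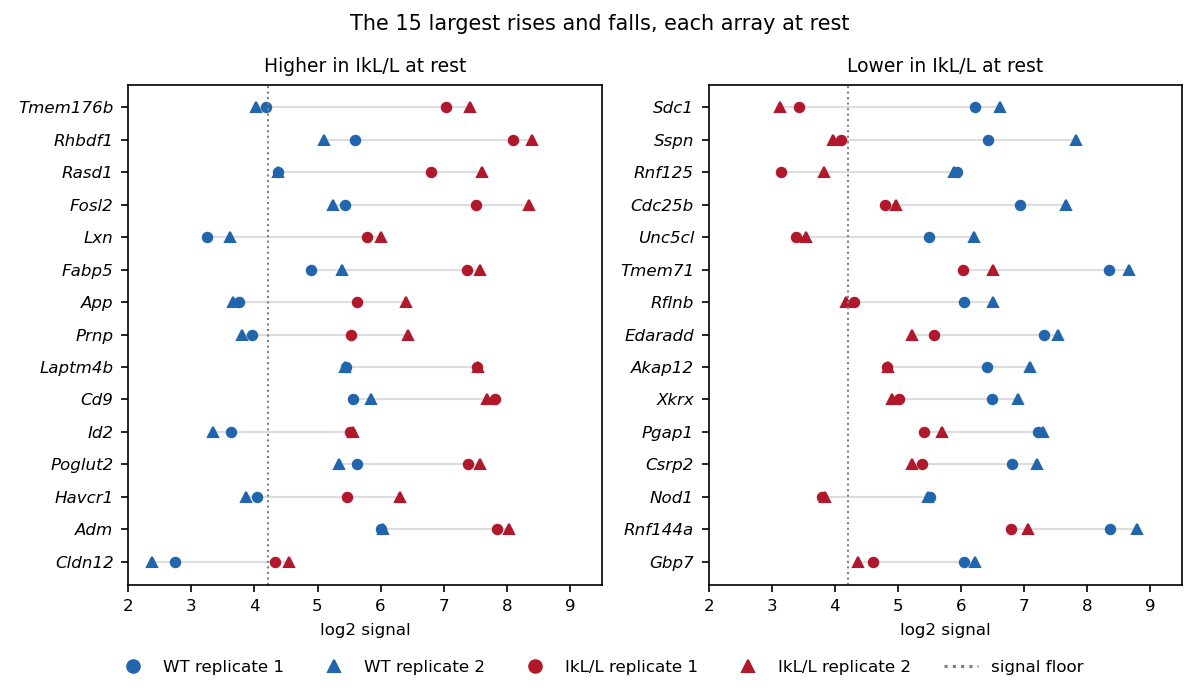
Each row is a gene and each symbol 1 resting array, placed by its log2 signal: circles are replicate 1, triangles replicate 2, blue WT and red IkL/L, and the dotted line is the floor of 4.21. The left panel holds the 15 largest rises and the right panel the 15 largest falls among genes past the threshold, and the blue and red symbols of a row do not overlap, which the choice of rows fixes.

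Among the falls, Sdc1, which encodes syndecan-1 (CD138), a proteoglycan best known as a plasma cell marker, had the largest difference. Its log2 signals were 6.22 and 6.61 in WT against 3.43 and 3.13 in IkL/L, so that it was at least 4.6-fold lower (log2 difference -3.13, SE 0.34, adjusted p 0.00252). Of its 3 other probe sets, those above the floor in WT had 5.66 and 6.06 against 3.24 and 3.53, and 4.97 and 5.49 against 3.43 and 3.28, and the other one was under the floor throughout. Sdc1 was therefore above the floor on both WT arrays and under it on both IkL/L arrays by 3 probe sets. Jchain, a gene of antibody-secreting cells, had 5.07 and 7.0 in WT against 5.64 and 8.68 in IkL/L (adjusted p 0.857). Of 15 plasma cell genes measured only Sdc1 passed the test, where 1.13% of all genes passed. Prdm1, the regulator of plasma cell differentiation, was under the floor on the 4 arrays.

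The promoter windows of Sdc1 and Sspn, the 2 largest falls, and of Xkrx, the largest fall after them whose window holds TGGGAA, are printed in the same way as those of the rises.
The windows are chr12:8771146-8771445 (plus strand), chr6:145931623-145931922 (plus strand, 1 of 2 starts in the table) and chrX:134162910-134163209 (minus strand).
Sdc1: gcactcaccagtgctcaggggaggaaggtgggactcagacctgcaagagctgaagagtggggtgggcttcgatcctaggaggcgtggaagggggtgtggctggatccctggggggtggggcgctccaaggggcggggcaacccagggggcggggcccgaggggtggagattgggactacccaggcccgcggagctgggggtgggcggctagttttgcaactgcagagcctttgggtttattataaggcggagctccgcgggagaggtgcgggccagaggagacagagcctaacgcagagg
Sspn: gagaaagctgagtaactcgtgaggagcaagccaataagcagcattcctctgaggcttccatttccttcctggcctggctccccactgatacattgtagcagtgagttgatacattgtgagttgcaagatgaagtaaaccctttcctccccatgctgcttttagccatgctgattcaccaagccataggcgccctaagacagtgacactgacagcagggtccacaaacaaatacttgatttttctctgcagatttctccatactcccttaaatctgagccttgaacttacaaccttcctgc
Xkrx: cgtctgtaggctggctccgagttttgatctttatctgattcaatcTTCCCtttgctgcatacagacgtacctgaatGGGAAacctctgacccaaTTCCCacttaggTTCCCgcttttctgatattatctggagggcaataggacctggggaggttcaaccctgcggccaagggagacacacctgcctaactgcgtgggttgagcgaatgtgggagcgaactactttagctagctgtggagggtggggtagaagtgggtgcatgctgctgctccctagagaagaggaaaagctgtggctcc
The core was matched 0 times in the Sdc1 and Sspn windows and 4 times in that of Xkrx, 1 on the printed strand and 3 on the other.

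Counted over every 300-base window on either strand, GGGAA was found in 62.6% of 107 windows of genes higher in IkL/L, in 61.2% of 116 windows of genes lower, and in 64.4% of 18109 windows of all genes tested. The longer TGGGAA, each match of which is also a GGGAA match, was found in 31.8%, 19.8% and 24.2% of the same windows. Entries were matched for 82 of the 108 genes and 80 of the 97. The share with the core thus lay near that of all genes in both directions. These are matches of letters in a window, with no test and no measure of binding.

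The other falls that passed in each leave-one-array fit were led by Rnf125 and Cdc25b. Pirb, which also passed in each, is described below with the inhibitory regulators. Rnf125, an E3 ubiquitin ligase, had log2 signals of 5.94 and 5.88 in WT against 3.14 and 3.83 in IkL/L and was at least 3.25-fold lower (log2 difference -2.43, SE 0.20, adjusted p 0.00101). Cdc25b, a phosphatase that activates cyclin-dependent kinases, had 6.93 and 7.66 against 4.80 and 4.97, a 5.32-fold fall (log2 difference -2.41, SE 0.23, adjusted p 0.00145). Rflnb, a filamin-binding protein, had 6.05 and 6.51 against 4.30 and 4.17 and was at least 4.08-fold lower (adjusted p 0.00101). In IkL/L, both arrays were under the floor for Rnf125, near it for Rflnb and above it for Cdc25b. Unc5cl had 5.49 and 6.21 against 3.39 and 3.54 and was at least 3.11-fold lower (adjusted p 0.00426). Nod1, a sensor of bacterial peptidoglycan, had 5.51 and 5.47 against 3.80 and 3.84 and was at least 2.43-fold lower (adjusted p 0.00118). Gbp7, an interferon-inducible guanylate-binding protein, had 6.05 and 6.22 against 4.61 and 4.37, a 3.12-fold fall (adjusted p 0.00252, and 0.0155 without WT replicate 1, the array with high interferon genes).

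Pgap1, which remodels the lipid anchor of surface proteins, had log2 signals of 7.22 and 7.29 in WT against 5.42 and 5.69 in IkL/L, a 3.25-fold fall (adjusted p 0.00118). Ets2, a transcription factor of the ETS family, had 9.23 and 9.0 against 7.48 and 7.68, a 2.9-fold fall (adjusted p 0.00228). Both genes were well above the floor in both genotypes, so that their folds are measured on both sides. Fcgrt, the neonatal Fc receptor, had 4.82 and 5.33 against 3.75 and 3.74 and was at least 1.82-fold lower (adjusted p 0.00548). Hepacam2 had 4.93 and 4.98 against 3.59 and 3.08, Cyp39a1, an oxysterol hydroxylase, had 4.53 and 4.46 against 3.21 and 3.26, and Sec24d, a COPII coat subunit, had 4.83 and 4.74 against 3.64 and 3.71. They were at least 1.68-fold, 1.22-fold and 1.49-fold lower. The transcript C730049O14Rik had 6.36 and 6.35 against 4.45 and 4.01 and was at least 4.08-fold lower (adjusted p 0.00101).

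The 10 genes that kept the call without each resting array, without each replicate number of a genotype in all 3 conditions, and under each other setting with 1 value per gene were Tmem176b, Rhbdf1, Rasd1, Lxn and Adm, which rose, and Rnf125, C730049O14Rik, Rflnb, Pgap1 and Nod1, which fell.

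The remaining large falls lost the call without 1 or more arrays. Sspn, which encodes sarcospan of the dystrophin complex, had log2 signals of 6.42 and 7.82 in WT against 4.09 and 3.97 in IkL/L and was at least 7.5-fold lower (adjusted p 0.029). WT replicate 2 set its size: without that array the log2 difference was -2.39 (adjusted p 0.255), and the call was also lost without IkL/L replicate 1 (0.0835) or 2 (0.157). Tmem71 had 8.34 and 8.66 against 6.03 and 6.5, a 4.69-fold fall (adjusted p 0.00426, and 0.0624 without WT replicate 2). Edaradd, the adaptor of the ectodysplasin receptor, had 7.31 and 7.54 against 5.57 and 5.23, a 4.08-fold fall (adjusted p 0.00666, 0.093 without WT replicate 2 and 0.0559 without IkL/L replicate 2). These 2 genes were bright in WT, and both IkL/L arrays lay more than 1 log2 unit below, which their choice by the difference favours. Xkrx had 6.49 and 6.90 against 5.01 and 4.91, a 3.33-fold fall (adjusted p 0.0124, 0.142 without WT replicate 2 and 0.0915 without IkL/L replicate 2). Csrp2, a LIM domain protein, had 6.81 and 7.20 against 5.38 and 5.23, a 3.26-fold fall (adjusted p 0.00732, 0.0992 without WT replicate 2 and 0.0582 without IkL/L replicate 2). Rnf144a, an E3 ubiquitin ligase, had 8.36 and 8.78 against 6.79 and 7.06, a 3.13-fold fall (adjusted p 0.0106, 0.129 without WT replicate 2 and 0.0527 without IkL/L replicate 1).

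The inhibitory regulators of B cell receptor signalling held 3 falls and no rise among 28 genes measured, where 0.533% of all genes fell and 0.594% rose. Of the 28, 22 were above the floor on a resting array, and the list median was -0.25 against 0.02 over all genes. Pirb, a paired immunoglobulin-like receptor that recruits phosphatases, had log2 signals of 5.14 and 4.65 in WT against 3.41 and 3.76 in IkL/L, was at least 1.61-fold lower (adjusted p 0.00753), and passed in each leave-one-array fit. Pecam1, an adhesion receptor with inhibitory motifs, had 5.26 and 5.76 against 4.29 and 4.18 and was at least 2.4-fold lower (adjusted p 0.00666, and 0.0522 without IkL/L replicate 2). Btla, an inhibitory receptor for HVEM, had 10.58 and 10.95 against 9.82 and 9.66, a 2.03-fold fall (adjusted p 0.015, 0.148 without WT replicate 2 and 0.107 without IkL/L replicate 2). Fcgr2b, the inhibitory Fc receptor, had 9.53 and 9.73 in WT against 9.78 and 9.62 in IkL/L, so the groups overlapped (adjusted p 0.943). Cd22, a sialic acid-binding inhibitory receptor, had 10.47 and 10.85 against 9.96 and 9.86 and did not pass the test (adjusted p 0.259), nor did the adaptor gene Dok3, with 7.76 and 8.33 against 6.89 and 7.0 (adjusted p 0.0872).

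None of 26 components of B cell receptor signalling passed the test in limma, with a list median of -0.29. At an unadjusted p under 0.05, 3 were higher and 10 lower, where 6.17% of all genes were higher and 4.62% lower. With the gene table quantile-normalized, 1 of them passed, lower in IkL/L. The members closest to the threshold were a pair of Ras exchange factors with opposite signs. Rasgrp1 had log2 signals of 8.33 and 8.64 in WT against 7.38 and 7.38 in IkL/L (difference -1.10, adjusted p 0.0646), and Rasgrp3 had 9.83 and 9.40 against 10.49 and 10.37 (difference 0.82, adjusted p 0.0764). The kinase gene Syk had 10.83 and 11.15 against 10.05 and 10.55 (adjusted p 0.393). None of 18 B cell identity factors passed either, with 7 lower at an unadjusted p under 0.05 (4.62% of all genes) and a median of -0.33. The E protein gene Tcf3 had 8.68 and 8.61 against 7.71 and 7.66 (adjusted p 0.173), while Ebf1 had 8.96 and 9.04 against 8.89 and 9.13 and Pax5 6.43 and 7.12 against 5.97 and 6.39.

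**Figure D3:**
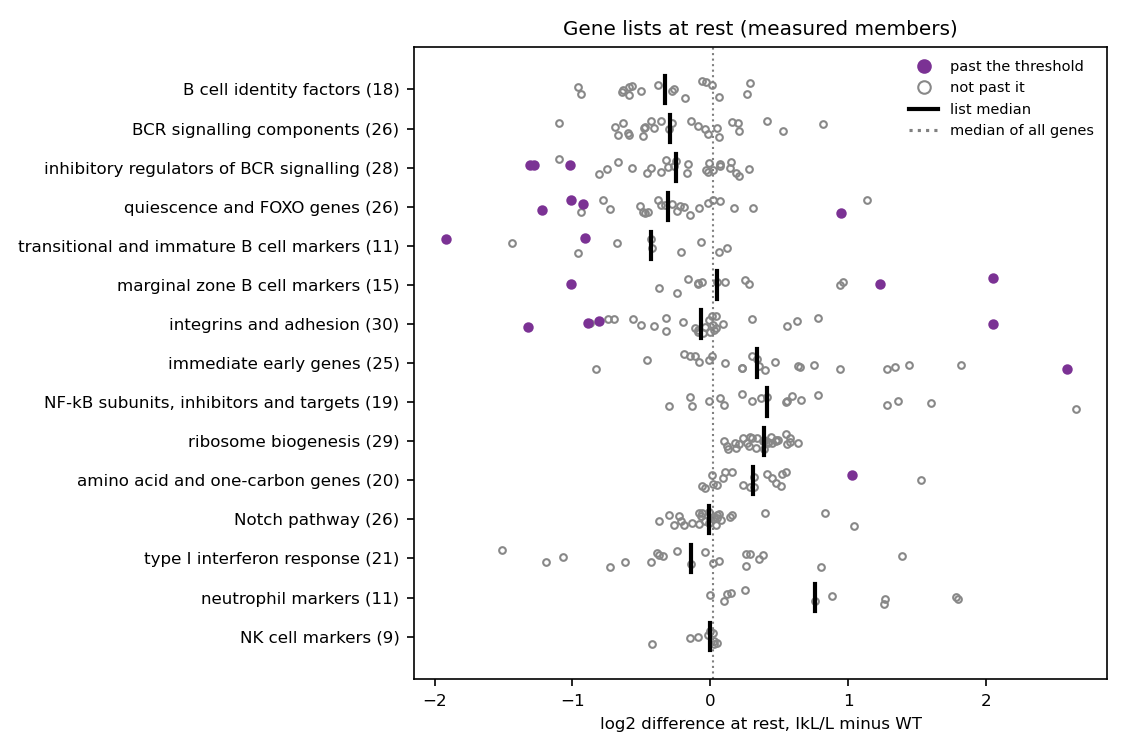
Each point is a measured gene of a list (number in brackets), placed by its log2 difference at rest, IkL/L minus WT; filled points passed the test, black bars are list medians, and the dotted line is the median of all genes, 0.02. All 29 ribosome biogenesis genes lie above 0 with none past the test, where 10001 of all 18193 genes lie above 0. The 3 filled points of the inhibitory regulators lie below 0.

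Markers of other B cell subsets held calls in both directions. Among 15 marginal zone markers, Cd9 and Cd36 rose and S1pr1 fell, with a list median of 0.05, where 0.594% of all genes rose and 0.533% fell. With each array centred on its median 1 rose and 1 fell, and with housekeeping scaling 1 rose and none fell. Cd36, a scavenger receptor, had log2 signals of 3.48 and 3.23 in WT against 4.36 and 4.82 in IkL/L and was at least 1.3-fold higher (adjusted p 0.0465), a call lost without any 1 of the 4 arrays (0.0539 to 0.343). S1pr1, the receptor that draws B cells toward sphingosine-1-phosphate, had 7.70 and 7.83 against 6.63 and 6.89, a 2.01-fold fall (adjusted p 0.0319) that was also lost without any 1 array (0.0951 to 0.267). Other marginal zone genes did not pass, such as Cd1d1, with 6.95 and 6.96 against 6.71 and 7.09. Of 11 B-1 cell markers only Ahr, the aryl hydrocarbon receptor, passed: it had 7.14 and 7.01 in WT against 8.35 and 9.01 in IkL/L, a 3.04-fold rise (adjusted p 0.0088, and 0.11 without WT replicate 2).

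Of 11 markers of transitional and immature B cells, 2 fell and none rose, where 0.533% of all genes fell, with a list median of -0.43. The falls numbered 1 with housekeeping scaling and 3 with the gene table quantile-normalized. Akap12, a scaffold of protein kinase A, had log2 signals of 6.41 and 7.09 in WT against 4.83 and 4.84 in IkL/L, a 3.78-fold fall (adjusted p 0.0306) that was lost without any 1 of the 4 arrays (0.054 to 0.267). Lef1, a transcription factor of the Wnt pathway, had 6.11 and 5.98 against 5.15 and 5.12, a 1.88-fold fall (adjusted p 0.0168), again lost without any 1 array (0.0528 to 0.111). Cd93, the defining surface marker of transitional B cells, had 6.19 and 6.27 against 4.80 and 4.78 and did not pass (adjusted p 0.0963). In bulk RNA, fewer cells of a type and less RNA per cell cannot be told apart. Among adhesion genes, of 30 measured, Cd9 rose and 3 fell, or 1 with housekeeping scaling and 4 with quantile normalization. Itgb7, an integrin beta chain, had 7.56 and 8.09 against 6.40 and 6.62, a 2.49-fold fall (adjusted p 0.00732, and 0.0624 without WT replicate 2). Itga6 had 6.05 and 6.15 against 5.19 and 5.23, a 1.85-fold fall (adjusted p 0.0207, 0.0695 to 0.198 without any 1 array), and L1cam 5.24 and 5.26 against 4.55 and 4.33, a 1.75-fold fall (adjusted p 0.0259, 0.12 and 0.217 without WT replicate 1 or 2 and 0.162 without IkL/L replicate 2).

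Genes of quiescence and FOXO activity held 3 falls and 1 rise among 26 measured, where 0.533% of all genes fell and 0.594% rose, with a list median of -0.31. With housekeeping scaling 1 fell and none rose. Cdkn2d, an inhibitor of CDK4 and CDK6, had log2 signals of 5.18 and 5.81 in WT against 4.31 and 4.24 in IkL/L, a 2.33-fold fall (adjusted p 0.0191, 0.114 without WT replicate 2, 0.0554 and 0.119 without IkL/L replicate 1 or 2). Klf3, a repressor of the Kruppel-like family, had 8.50 and 8.94 against 8.03 and 7.57, a 1.89-fold fall (adjusted p 0.0456, 0.351 without WT replicate 2 and 0.236 without IkL/L replicate 2), and S1pr1 was the third. Klf4, another member of that family, went the other way with 4.29 and 4.45 against 5.08 and 5.57, a 1.94-fold rise (adjusted p 0.0276, 0.165 and 0.148 without WT replicate 1 or 2 and 0.144 without IkL/L replicate 2). Cdkn1b, which encodes p27, had 6.69 and 6.46 against 6.93 and 6.07, so its groups overlapped. Of 18 cyclin, CDK and CDK inhibitor genes, Cdkn2d and Ccne1 fell and none rose, and 3 fell with the gene table quantile-normalized. Ccne1, which encodes cyclin E1, had 5.53 and 6.17 against 4.78 and 4.71, a 2.15-fold fall (adjusted p 0.0338, 0.247 without WT replicate 2, 0.0867 and 0.182 without IkL/L replicate 1 or 2). None of 30 DNA replication and G1/S genes passed in limma, with 4 higher at an unadjusted p under 0.05 (6.17% of all genes), and Ccnd2 had 9.81 and 9.33 in WT against 9.53 and 10.03 in IkL/L.

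Fosl2 was the only 1 of 25 immediate early genes that passed the test, where 1.13% of all genes passed, and the list median was 0.34. At an unadjusted p under 0.05, 8 were higher and 1 lower, where 6.17% of all genes were higher and 4.62% lower. IkL/L replicate 2 was the highest of the 4 arrays for most of the other induced members. Fos, the AP-1 subunit, had log2 signals of 6.96 and 6.64 in WT against 7.68 and 8.80 in IkL/L (adjusted p 0.213), and Maff had 4.77 and 4.48 against 5.42 and 7.47 (adjusted p 0.169). Egr1, a target of B cell receptor signalling, had 8.91 and 8.99 against 8.58 and 10.02, with WT inside the IkL/L range (adjusted p 0.855). Myc had 8.70 and 8.50 against 8.82 and 9.66 (adjusted p 0.36). The surface activation genes Cd69 and Cd86 had 8.78 and 8.09 against 8.19 and 8.23, and 8.93 and 8.57 against 8.49 and 8.89, and overlapped between the genotypes. None of 19 NF-kB genes passed in limma, with a median of 0.41 and, at an unadjusted p under 0.05, 8 higher and none lower against the same shares of all genes. With the gene table quantile-normalized 2 passed, both higher in IkL/L. The chemokine gene Ccl3 had 4.84 and 4.53 in WT against 6.67 and 8.0 in IkL/L (adjusted p 0.061), again with IkL/L replicate 2 the highest.

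Ribosome biogenesis genes had small positive differences throughout: the 29 measured lay between 0.10 and 0.64, with a median of 0.39. Over all genes, 10001 of 18193 lay above 0. The 29 genes were read on the same 4 arrays, so they are not replicates of the genotype. None passed in limma, 12 were higher and none lower at an unadjusted p under 0.05, where 6.17% of all genes were higher and 4.62% lower, and with the gene table quantile-normalized 2 passed. All 29 stayed above 0 when each array was centred on its median or scaled on housekeeping genes, with medians of 0.35 and 0.34. Bysl, a factor of small subunit assembly, had log2 signals of 6.57 and 6.54 in WT against 6.97 and 7.42 in IkL/L (adjusted p 0.0856). Among 20 amino acid and one-carbon genes only Asns, which encodes asparagine synthetase, passed, where 1.13% of all genes did. It had 6.36 and 6.53 against 7.40 and 7.55, a 2.04-fold rise (adjusted p 0.0441). The call was lost without any 1 of the 4 arrays (0.091 to 0.23) and when each array was centred on its median or scaled on housekeeping genes.

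Single members passed in several other lists, where 1.13% of all genes passed. Of those below, Csf2rb, Ighg3 and Tnfsf4 lost the call with housekeeping scaling, and Ighg3 also with the gene table quantile-normalized. Cbx7, a Polycomb protein that reads histone H3 methylation, had log2 signals of 7.56 and 7.98 in WT against 6.11 and 6.62 in IkL/L, a 2.65-fold fall (adjusted p 0.0168, 0.168 without WT replicate 2 and 0.0609 without IkL/L replicate 1), and was the only 1 of 19 Polycomb genes to pass. Cyp51, the lanosterol demethylase, had 5.42 and 5.56 against 4.26 and 4.56, a 2.12-fold fall (adjusted p 0.0185, 0.0733 and 0.183 without WT replicate 1 or 2 and 0.0742 without IkL/L replicate 1), as the only 1 of 19 sterol and fatty acid synthesis genes. Another Cyp51 probe set, near the floor, had 3.85 and 4.12 against 4.08 and 4.32, and another Cbx7 probe set overlapped, with 4.68 and 5.1 against 4.4 and 4.93. With the mean of a gene's probe sets, neither Cyp51 nor Cbx7 passed in limma (adjusted p 0.407 and 0.082). That setting kept 150 of the 205 calls. Falls described above that also lost the call there include Lef1 (0.057), Klf3 (0.0703), Ccne1 (0.0885) and L1cam (0.107). Csf2rb, the common beta chain of the receptors for interleukins 3 and 5 and GM-CSF, had 4.24 and 4.22 against 5.09 and 5.47, a 2.07-fold rise (adjusted p 0.0366, 0.162 and 0.267 without WT replicate 1 or 2 and 0.214 without IkL/L replicate 2). Ighg3 had 3.65 and 3.44 against 4.57 and 4.35 and was at least 1.19-fold higher (adjusted p 0.0306), lost without any 1 array (0.0875 to 0.267). Tnfsf4, which encodes OX40 ligand, passed (adjusted p 0.0146, 0.159 without WT replicate 2 and 0.0951 without IkL/L replicate 2) but was under the floor on the 4 arrays, with 2.80 and 2.62 against 3.44 and 3.75, so it has no fold.

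The lists of NuRD, Notch pathway and MHC class II genes held no call in limma. None of 13 NuRD genes passed, with 2 lower at an unadjusted p under 0.05, and none of 26 Notch pathway genes, with 2 higher. At an unadjusted p under 0.05, 6.17% of all genes were higher and 4.62% lower, which applies to each list in this paragraph. Hes1, a Notch target, had log2 signals of 4.46 and 4.0 in WT against 5.21 and 5.34 in IkL/L (adjusted p 0.177), and Rbpj, the DNA-binding factor of the pathway, had 7.88 and 7.98 against 8.58 and 8.94 (adjusted p 0.101). None of 15 MHC class II genes passed, with 1 lower at an unadjusted p under 0.05, and 1 passed as lower when each array was centred on its median. Neutrophil markers, 11 measured, had a median of 0.76, and none passed or had an unadjusted p under 0.05. Their linear signals summed to 89 and 217 in WT against 172 and 562 in IkL/L, so that the groups overlapped, and Ngp, a granule protein gene, had 3.13 and 6.08 against 5.38 and 7.38. The part of this signal in the differences at rest was not tested. Of 15 monocyte and macrophage markers 1 was above the floor. Of 17 T cell markers 3 were above the floor on a resting array and none passed in limma, with 1 higher and 1 lower at an unadjusted p under 0.05. Their signals summed to 972 and 1012 in WT against 574 and 531 in IkL/L, most of it from Cd2, which mouse B cells also express and which had log2 signals of 9.64 and 9.69 against 8.62 and 8.36 (adjusted p 0.158).

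The genes that differed at rest were followed on the 8 arrays of stimulated cells. These arrays are not independent of the choice, because their spread enters the SE of the shared fit, they count in the choice of probe set, and they may come from the same animals. The genes were chosen for a large difference at rest, which by itself makes a smaller difference likely elsewhere. A fit of only the 4 resting arrays called 44 genes, 42 of them among the 205. After 3 h of anti-IgM, 41 of the 108 genes higher at rest were also higher at an adjusted p under 0.05, where 0.835% of all genes were higher, and their median difference was 0.66 against 1.09 at rest. Of the 97 genes lower at rest, 23 were also lower, where 0.868% of all genes were lower, and their median was -0.47 against -1.11 at rest. After 12 h the counts were 31 and 10, where 0.451% and 0.165% of all genes were higher and lower, with medians of 0.63 and -0.29. The 41 genes make up 38% of those higher at rest and 27% of the 152 genes higher at 3 h, and the 23 make up 23.7% and 14.6% of the 158 lower. No gene passed in the opposite direction, and 21 of the higher and 6 of the lower genes passed at both times. Without 1 resting array, or without a replicate number of 1 genotype in all conditions, between 6 and 48 genes differed at rest and at 3 h, fewest without IkL/L replicate 2 in all conditions, and between 1 and 27 at rest and at 12 h, fewest without the same arrays.

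**Figure D4:**
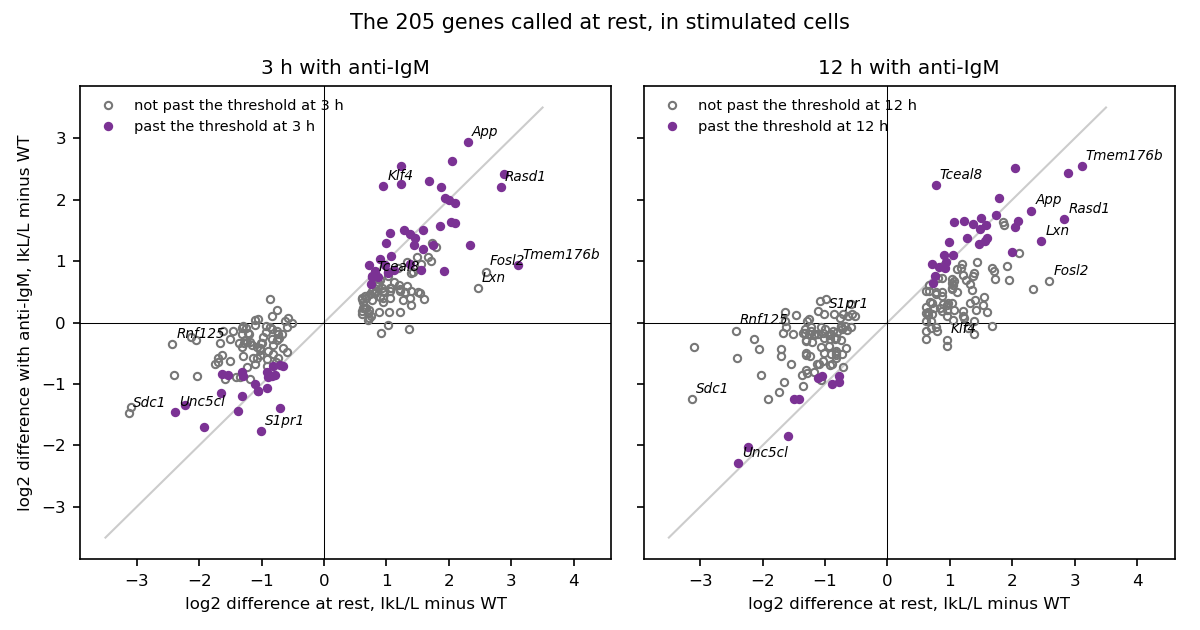
Each point is 1 of the 205 genes that differed at rest, placed by its log2 difference at rest (horizontal) and after 3 h (left) or 12 h (right) of anti-IgM (vertical), both IkL/L minus WT; filled points passed the test in stimulated cells and the grey diagonal marks equal differences. Since the genes were chosen by their difference at rest, points nearer to 0 in stimulated cells do not by themselves show a smaller difference there. App lies above the diagonal at 3 h and Unc5cl close to it at 12 h.

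Rises that passed in all 3 conditions included Rhbdf1, Rasd1, Cd9, App, Poglut2, Id2, Laptm4b, Bcl2l2, Cd36 and Tmem176b. Cd9 had log2 signals of 6.00 and 5.67 in WT against 8.30 and 8.64 in IkL/L at 3 h, and 6.24 and 6.24 against 8.37 and 9.15 at 12 h, with adjusted p 0.00109 and 0.00188. Rhbdf1 had 4.70 and 4.31 against 6.80 and 7.02 at 3 h, and 4.38 and 4.03 against 6.46 and 6.84 at 12 h. The genotypes thus stayed apart on all 12 arrays for these 2 genes. Bcl2l2 had 4.19 and 3.95 against 5.47 and 5.68 at 3 h, and 5.23 and 5.11 against 6.60 and 6.49 at 12 h. Among the falls, Unc5cl had 4.43 and 4.53 against 3.10 and 2.94 at 3 h, and 5.46 and 6.31 against 3.70 and 3.5 at 12 h (adjusted p 0.0327 and 0.00817), and Tmem71 (0.0344 and 0.0103) and Itga6 (0.0172 and 0.015) also passed at both times.

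Fosl2, Fabp5, Adm, Id2, Ahr and Havcr1, all high in resting IkL/L cells, rose within 3 h of anti-IgM in WT cells (limma adjusted p 0.000133 for Havcr1 and lower for the others). They are examples chosen after their values were seen, as are the falls described next. Of the other genes among the 15 largest rises, Prnp and Rasd1 also rose in WT (adjusted p 0.031 and 0.0115). Rhbdf1 fell in WT (adjusted p 0.0217), as did the smaller rise Bcl2l2 (0.0119). Tmem176b, Lxn, App, Laptm4b, Cd9, Poglut2 and Cldn12 did not pass in WT at 3 h. In WT, 3529 of 18193 genes (19.4%) changed within 3 h of anti-IgM, 1665 (9.15%) upward and 1864 (10.2%) downward, and these comparisons share the resting WT arrays with the comparison at rest, so levels are given side by side with no test between them. Fosl2 went from 5.44 and 5.24 in resting WT cells to 8.83 and 8.69 at 3 h, and resting IkL/L cells had 7.51 and 8.35. Fabp5 had 9.29 and 9.70 in WT at 3 h, against 7.36 and 7.58 in resting IkL/L cells. Adm had 8.54 and 8.89 in WT at 3 h against 7.84 and 8.03 in resting IkL/L cells. The resting IkL/L levels of these genes lay between resting and stimulated WT. Id2 had 6.13 and 6.07 in WT at 3 h against 5.51 and 5.56, Ahr 10.74 and 10.65 against 8.35 and 9.01, and Havcr1 6.30 and 6.70 against 5.47 and 6.31. After 3 h of anti-IgM, IkL/L cells were higher than WT in Fabp5 (10.66 and 10.88, adjusted p 0.0289), Adm (9.67 and 9.45, adjusted p 0.041), Id2 (7.66 and 7.80, adjusted p 0.0198) and Havcr1 (8.34 and 8.71, adjusted p 0.00843), while Fosl2 and Ahr did not pass (adjusted p 0.308 and 0.508).

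Cdc25b, Rflnb, Rnf125, S1pr1 and Sdc1, all low in resting IkL/L cells, fell within 3 h of anti-IgM in WT cells (limma adjusted p 0.000669 for Sdc1 and lower for the others). The other genes among the 15 largest falls also fell in WT at 3 h (adjusted p 0.0281 for Akap12 and lower for the others). Of all genes, 10.2% fell. These falls use the same resting WT arrays by which the genes were chosen, and no test was made between the comparisons. Cdc25b went from 6.93 and 7.66 in resting WT cells to 3.72 and 3.86 at 3 h, with 4.80 and 4.97 in resting IkL/L cells. Rflnb had 3.65 and 3.76 in WT at 3 h and Rnf125 3.47 and 3.47, all under the floor. S1pr1 went to 6.23 and 6.16 in WT at 3 h and to 4.63 and 4.23 in IkL/L, where it was lower than in WT (adjusted p 0.00199), and at 12 h it had 4.15 and 4.19 against 4.55 and 4.07. Sdc1 had 3.45 and 4.63 in WT at 3 h and 2.41 and 2.73 in IkL/L (adjusted p 0.0647). Where both genotypes are near or under the floor after stimulation, a genotype difference could not be measured.

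**Figure D5:**
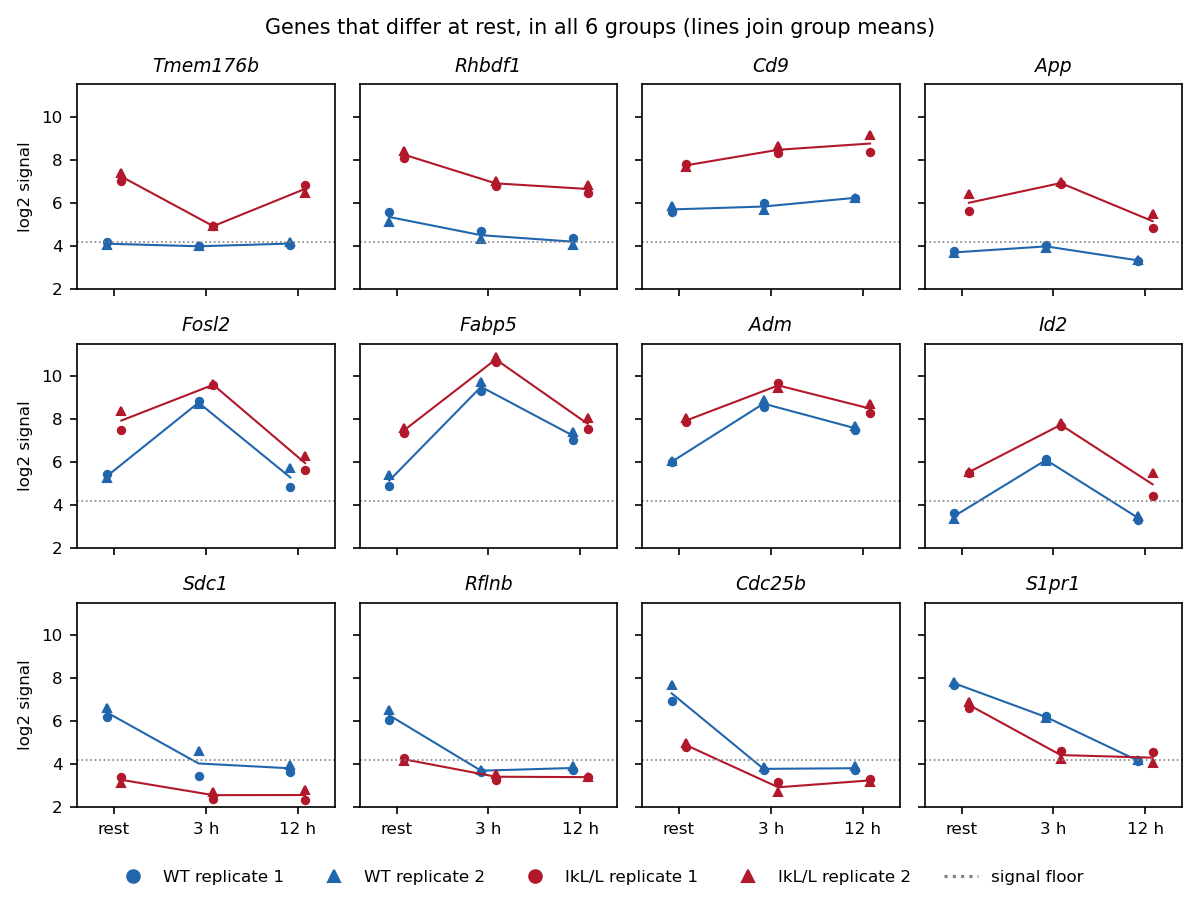
Log2 signal of 12 genes that differed at rest on each of the 12 arrays, by condition (rest, 3 h and 12 h of anti-IgM); circles are replicate 1, triangles replicate 2, blue WT and red IkL/L, lines join group means and the dotted line is the floor of 4.21. The genotypes stay apart in all conditions for Rhbdf1, Cd9 and App, Fosl2 rises in WT to 8.83 and 8.69 at 3 h, and Cdc25b and Rflnb are under the floor in WT after stimulation.

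A direct test of the genotype difference at 3 h minus that at rest passed for 7 genes (0.0385%), 5 of them (0.0275%) with a positive and 2 (0.011%) with a negative value, and the same test for 12 h passed for 4 genes (0.022%), all positive. The resting cells were cultured for 3 h, so in the 12 h test anti-IgM and longer culture cannot be told apart. Tmem176b went in IkL/L from 7.04 and 7.41 at rest to 4.91 and 4.94 at 3 h and back to 6.84 and 6.47 at 12 h, while its 6 WT arrays lay between 3.99 and 4.19, and its difference at 3 h minus that at rest was -2.17 (SE 0.22, adjusted p 0.0263). Il16, a cytokine precursor, did not differ at rest (10.08 and 10.03 against 9.90 and 9.80) and was lower in IkL/L at 3 h (7.67 and 7.90 against 6.19 and 6.03). Axl, a receptor tyrosine kinase for Gas6, was under the floor at rest in both genotypes and reached 5.59 and 5.80 in IkL/L at 3 h and 7.22 and 7.04 at 12 h, against 3.46 and 3.28, and 4.56 and 4.14, in WT. Ccl22, a chemokine that attracts CCR4-bearing T cells, was under the floor at rest and at 12 h had 3.90 and 3.65 in WT against 6.54 and 6.82 in IkL/L. For Rflnb, C730049O14Rik and Rnf125, which had a positive value, the WT signal was above the floor at rest and under it on the WT arrays after stimulation. Without any 1 resting array at most 1 gene passed at 3 h, and 1 to 7 passed at 12 h, 1 without WT replicate 2 and 2 without WT replicate 1.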

How the data were processed

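Transcripts were measured on 12 Affymetrix mouse 3' expression arrays, 1 per sample, from 100 ng of total RNA labelled in a 2-cycle protocol, per the labels' protocols. RMA gave the deposited log2 values, per the submitters' processing notes, whose version was not given in the sources used here. RMA corrects background and quantile-normalizes all arrays together, so that global shifts between samples are removed before deposit, and the amplification in 2 cycles adds spread that 2 arrays a group measure poorly. Arrays were grouped by their titles.

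The annotation assigns 1 gene symbol to 34945 of the 45037 probe sets; 932 with several symbols and 9160 that it does not list were left out. For each of 18193 genes the probe set brightest on average over the 12 arrays was used (9010 genes had a choice). All 12 arrays were fitted in limma 3.58.1 under R 4.3.3 with 1 mean per group and empirical Bayes moderation (6 residual and 3.95 prior degrees of freedom); p-values were adjusted over all genes with the Benjamini-Hochberg method, the threshold was an adjusted p of 0.05, and SE is the moderated standard error. Only 2 arrays a group, and no detection calls, limit the precision.

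No background call came with the values, so the floor replaces one: an "at least" fold raises each array of the lower group that is under the floor to it before the means are compared, and no fold is given where both means are under it. The genes named are the 15 largest rises and 15 largest falls past the threshold that have a gene name and groups that do not overlap, up to 4 members past it per list, up to 5 of each sign for each test of a change in the difference, and a fixed set of Ikaros, B cell and activation genes, not all of which are reported here; exceptions are stated. The members and lists were chosen with earlier results of these data known. Promoter windows came from RefSeq (GRCm38.p6) by symbol. The alternatives changed the block, scaling, probe set choice, dim gene filter, moderation and arrays used.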

Additional observations from a re-analysis of the deposited data

Results flagged for a closer look

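The genotype difference after stimulation differed from that at rest for 10 genes by the interaction test of limma (adjusted p under 0.05). For the 12 h values, anti-IgM and longer culture cannot be told apart. At 3 h minus rest, the log2 values were -2.17 for Tmem176b, -1.47 for Il16, 1.33 for Xcl1, 1.55 for Fjx1, 1.76 for Rflnb, 1.88 for C730049O14Rik and 2.07 for Axl. At 12 h minus rest, they were 1.46 for Tceal8, 2.29 for Rnf125, 2.52 for Axl and 2.74 for Ccl22. Axl passed at both times. Xcl1, a lymphotactin gene, and Fjx1 were under the floor at rest in both genotypes and in WT at 3 h; in IkL/L at 3 h Xcl1 had 4.72 and 4.93 and Fjx1 4.71 and 4.88. Tceal8 was under the floor at rest and had 5.27 and 5.24 in IkL/L at 12 h against 2.96 and 3.09 in WT. Its genotype difference also passed in limma at rest (0.77, adjusted p 0.021) and at 3 h (0.74, adjusted p 0.0202), with all signals under the floor.

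Probe sets that name no single gene also carried a signal. Of 10092 such probe sets, 68 differed between the genotypes at rest in a fit over all deposited probe sets, 20 higher and 48 lower in IkL/L, where 344 of 45037 probe sets differed in all.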

How the results depend on the processing

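Counts of genes moved with the arrays used and with the treatment of blocks and scaling. Leaving out arrays gave 16 to 168 genes changed at rest (9 to 108 higher, 7 to 62 lower), 6 to 48 of them shared with 3 h, 1 to 27 with 12 h, 0 to 1 changed differences at 3 h and 0 to 7 at 12 h (by limma, at least 725 and 549 genes at an unadjusted p under 0.05 in those fits). Without 1 resting array, the genes changed at rest, those shared with 3 h and those shared with 12 h numbered 95, 26 and 18 (33 higher, 62 lower) without WT replicate 1; 33, 11 and 10 (15 higher, 18 lower) without WT replicate 2; 168, 48 and 27 (108 higher, 60 lower) without IkL/L replicate 1; and 67, 25 and 19 (27 higher, 40 lower) without IkL/L replicate 2. With the same replicate left out in all 3 conditions they numbered 83, 22 and 15 (26 higher, 57 lower), 42, 8 and 9 (15 higher, 27 lower), 104, 29 and 18 (72 higher, 32 lower), and 16, 6 and 1 (9 higher, 7 lower), in the same order. A fit of only the 4 resting arrays gave 44 genes (23 higher, 21 lower). With the replicate number as a block over both genotypes there were 400 genes (200 higher, 200 lower), which held all 205 reported ones, with 122 also changed at 3 h, 72 at 12 h, and 11 and 19 changed differences at 3 h and 12 h. Same-numbered arrays of the 2 genotypes deviated together with correlations of 0.026 to 0.31, with 0.154 at rest, 0.168 at 3 h and 0.291 at 12 h for arrays of the same condition. The labels do not say what a shared number marks and the comparison at rest has only 2 numbers, so whether they pair the genotypes was not settled and the block was kept as an alternative. Within a genotype the correlations were 0.354 to 0.619, and a random block for that source gave 231 genes at rest and 14 changed differences at 12 h. Housekeeping scaling gave 92 genes (41 higher, 51 lower), 21 shared with 3 h, 13 with 12 h and 1 changed difference at 3 h. Changed differences at 3 h and 12 h numbered 2 and 13 with the mean of a gene's probe sets. At 3 h they were 0 in limma with each probe set tested on its own (1870 genes at an unadjusted p under 0.05) and 2 without the dimmest 1 in 3 genes, and at 12 h 7 with an intensity trend. The cause of these shifts was not tested. The other counts lay within 1.5 times of those reported. Over 72 named genes and 20 settings (Ikzf2 and Tnfsf4 were not tested without the dimmest 1 in 3 genes), 1165 values kept their side of the threshold, 272 lost it, 1 gained it and 0 reversed. Signals under the floor limit the dim genes, whose differences rest on values near background.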

Other observations

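Bmpr2, Smad1, Eng and Smad7, chosen after their values were seen, were among the 205 genes that differed at rest; the other members of their pathways were not counted, so nothing is said of the pathways. Bmpr2, a type II BMP receptor, had log2 signals of 4.10 and 4.61 in WT against 5.49 and 6.38 in IkL/L and was at least 2.88-fold higher (limma adjusted p 0.0342). Smad1, a transducer of BMP signals, had 5.34 and 5.32 against 6.14 and 6.5, a 1.99-fold rise (adjusted p 0.0366), and both genes were also higher at 3 h (0.0335 and 0.00973) and 12 h (0.0461 and 0.0146). Eng, a co-receptor, had 4.65 and 4.27 against 5.89 and 5.84 (adjusted p 0.0497), and Smad7, an inhibitory SMAD, had 6.24 and 6.79 against 5.32 and 5.65, a 2.04-fold fall (adjusted p 0.0272). With the mean of its probe sets Smad7 did not pass in limma (adjusted p 0.708). At rest each of the 4 calls was lost without 1 or more arrays: the highest adjusted p was 0.202 for Bmpr2 (without WT replicate 1), 0.267 for Smad1, 0.363 for Eng and 0.197 for Smad7 (without WT replicate 2).

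Further genes named after their values were seen include Socs3, a feedback inhibitor of cytokine receptors, with 4.67 and 5.20 in WT against 6.38 and 6.91 in IkL/L, a 3.27-fold rise (adjusted p 0.0276, and 0.182 without IkL/L replicate 2). Il1b had 4.02 and 3.73 against 5.31 and 5.19 (adjusted p 0.0279, and 0.264 without WT replicate 2), beside the neutrophil marker sums given above. Gimap3 and Gimap7, GTPases of lymphocyte survival, fell: Gimap3 had 8.83 and 9.09 against 7.91 and 7.91 (adjusted p 0.00678, and 0.0954 without WT replicate 2), and Gimap7 had 7.49 and 7.60 against 6.05 and 6.44 (adjusted p 0.00937, and 0.114 without WT replicate 2). Rasgrp2, a Rap exchange factor, had 7.06 and 7.68 against 6.23 and 5.90, a 2.47-fold fall (adjusted p 0.021, 0.154 without WT replicate 2 and 0.146 without IkL/L replicate 2).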
